A study of Mus musculus with 4 samples.

Results

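Accessible chromatin at 10 genes of blood vessel signalling was examined in visceral fat of CD-1 mice, in 4 peak lists from an assay for transposase-accessible chromatin (ATAC-seq). The genes were Kdr, Flt1 and Nrp1, Tek and Tie1, Eng and Acvrl1, and Notch1, Notch4 and Dll4. They were chosen by their roles and by values of these same lists, in which vascular promoters had already been seen to differ between the libraries. They are 10 of 21000 mouse genes with a coding curated RefSeq transcript. Their peaks were taken within 500 bp of every curated start site, here called the promoter, and in a window from 20 kb upstream of the first start site to the gene end. Peak presence and peak rank were the values the choice rested on, so both are given as a description and with no test.

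The mice were 8 weeks old and belonged to an outbred stock, so that animals differ in genotype. The 2 control libraries came from descendants of pregnant females given sesame oil, and the 2 BPA libraries from descendants of females that received 50 mg/kg of the plasticiser bisphenol A by injection into the abdomen on embryonic days 7.5 to 13.5. The sampled animals received neither themselves, and the sources differ on the generation sampled. Neither sex nor batch was labelled, so a batch that follows the groups cannot be told apart from the exposure. The tissue was labelled adipose. All 10 adipocyte promoters had a peak in every library, as 57.9% of coding genes did. None of the 3 hepatocyte promoters had one in any library, which also held for 30.4% of coding genes. Control 1, control 2, BPA 1 and BPA 2 listed 82665, 88911, 72375 and 98060 peaks, and the lowest local background behind a peak, which grows with read depth, was 2.85, 2.70, 1.16 and 3.80 overlapping reads. BPA 1 was thus the shallowest list by this measure and BPA 2 the deepest.

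Endothelial cells line blood vessels and read growth signals through these receptors. Vascular endothelial growth factor (VEGF) signals through the receptor tyrosine kinase encoded by Kdr, while the Flt1 product binds the same ligand tightly and in its soluble form acts as a decoy, and Nrp1 encodes a co-receptor. Tek encodes the receptor for angiopoietins and Tie1 its partner without a well-defined ligand of its own. Eng and Acvrl1 encode endoglin and ALK1, which together receive bone morphogenetic proteins (BMPs) in the endothelium. Notch1 and Notch4 encode receptors and Dll4 a ligand of the Notch pathway, which sorts sprouting tip cells from stalk cells. Most of these genes are best known from endothelium, though Nrp1 and Notch1 are also used by many other cells.

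The reference sequence of the sites on which the comparison turns is shown first (GRCm38, the assembly that mm10 names). Each is written 5′ to 3′ on the strand of its gene. Capitals mark AGGAAG or CCGGAA on either strand, short cores of the motif bound by ETS factors, a family active in endothelium. The first set holds the 120 bases just upstream of the start sites of the 4 members whose promoter peak was found in BPA 1 and BPA 2 but not in the controls.

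Tie1 promoter, chr4:118489850-118489969, minus strand: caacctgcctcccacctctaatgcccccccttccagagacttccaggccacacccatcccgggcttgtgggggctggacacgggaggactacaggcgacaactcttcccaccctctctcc
Eng promoter, chr2:32646475-32646594, plus strand: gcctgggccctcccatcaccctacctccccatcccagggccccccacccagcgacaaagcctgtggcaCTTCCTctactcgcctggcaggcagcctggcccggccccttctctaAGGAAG
Notch4 promoter, chr17:34564175-34564294, plus strand: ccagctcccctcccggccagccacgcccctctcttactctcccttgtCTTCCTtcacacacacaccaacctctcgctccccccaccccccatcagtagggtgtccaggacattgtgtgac
Dll4 promoter, chr2:119325664-119325783, plus strand: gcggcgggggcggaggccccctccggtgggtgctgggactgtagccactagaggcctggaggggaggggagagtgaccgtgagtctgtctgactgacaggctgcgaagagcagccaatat

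Eng held 2 such matches in these bases, Notch4 held 1, and Tie1 and Dll4 held 0. Of 16479 coding genes matched in the RefSeq promoter table, 24.8% held a match in the same 120 bases, and 9 of the 10 members were in that table. The next set holds 121 bases centred on the summit of the 5 regions away from promoters that had peaks in BPA only and stood among the best 25% of peaks in BPA 1 and BPA 2 alike. The last line gives for contrast an intron 4 region of Tek that was open in all 4 libraries and ranked better in both controls.

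Kdr intron 10, chr5:75962211-75962331, minus strand: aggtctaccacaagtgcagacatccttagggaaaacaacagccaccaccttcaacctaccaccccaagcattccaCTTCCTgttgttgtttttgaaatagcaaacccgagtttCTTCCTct
Flt1 intron 10, chr5:147658029-147658149, minus strand: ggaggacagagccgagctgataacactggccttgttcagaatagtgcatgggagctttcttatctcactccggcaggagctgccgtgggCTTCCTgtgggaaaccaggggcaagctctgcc
Tek intron 1, chr4:94752623-94752743, plus strand: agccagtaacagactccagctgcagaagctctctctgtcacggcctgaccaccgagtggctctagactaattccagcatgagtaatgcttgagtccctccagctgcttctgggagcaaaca
Tek intron 11, chr4:94830073-94830193, plus strand: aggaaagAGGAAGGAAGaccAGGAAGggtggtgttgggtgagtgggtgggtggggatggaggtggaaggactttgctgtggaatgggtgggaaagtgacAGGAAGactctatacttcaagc
Eng intron 1, chr2:32656009-32656129, plus strand: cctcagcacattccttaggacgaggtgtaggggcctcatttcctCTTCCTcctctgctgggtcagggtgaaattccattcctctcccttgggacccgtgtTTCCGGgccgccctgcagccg
Tek intron 4, shared, chr4:94803354-94803474, plus strand: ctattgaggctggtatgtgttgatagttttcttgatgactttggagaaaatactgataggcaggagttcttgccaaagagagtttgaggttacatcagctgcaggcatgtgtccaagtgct

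Tek intron 11 held 4 matches, Kdr intron 10 and Eng intron 1 held 2 each, Flt1 intron 10 held 1, and the Tek sites in introns 1 and 4 held 0. Over all 131478 regions away from promoters, 21.5% of such 121-base windows held a match, and over the 13151 with peaks in both BPA libraries and no control the share was 33.3%. The BPA-only sites shown were picked by rank, and Tek intron 4 is a single contrast. Other shared regions varied, with 2 matches at the last exon of Kdr, 1 in intron 12 of Eng and 0 at 9.27 kb upstream of Kdr. In the wider search described below, 15 of all 31 BPA-only member regions away from promoters held a match (48.4%). The share was 47.1% over all such BPA-only regions. A match of letters is a description and not a bound site.

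At promoters, the BPA libraries held a peak for all 10 genes, and the controls for 6 and 5. Kdr, Nrp1, Tek, Acvrl1 and Notch1 had a promoter peak in all 4 libraries, which is 5 of 10 members against 57.9% of coding genes. Tie1, Eng, Notch4 and Dll4 had one in BPA 1 and BPA 2 and none in the controls, 4 of 10 members against 2.51% of coding genes, or 528 of 21000. Among the best 20000 peaks of each list, 8 members had a promoter peak in BPA 1 and BPA 2 only, against 4.83% of coding genes, and 0 had one in all 4 libraries, against 40.2% of coding genes. In the full lists no member had the reverse pattern, which 0.433% of coding genes showed. Flt1 had a promoter peak in control 1 and both BPA libraries, the pattern of 441 coding genes. The share of open vascular promoters in bulk tissue does not say whether fewer cells of a type or less accessible chromatin per cell was present in the controls, since these cannot be told apart.

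Each peak was ranked within its own list by the −log10 q-value given by the peak caller, and the rank is given as a percent of the list, so that a low percent is a strong peak. The fold is the summit pile-up over local background. For every member the rank was better in both BPA libraries than in both controls, counting a missing peak as the worst. That was 10 of 10 members against 40.3% of the 14620 coding genes with a promoter peak in any list. Ranks better in both controls, shown by 0 members, were found at 16.8% of these genes.

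**Figure D1:**
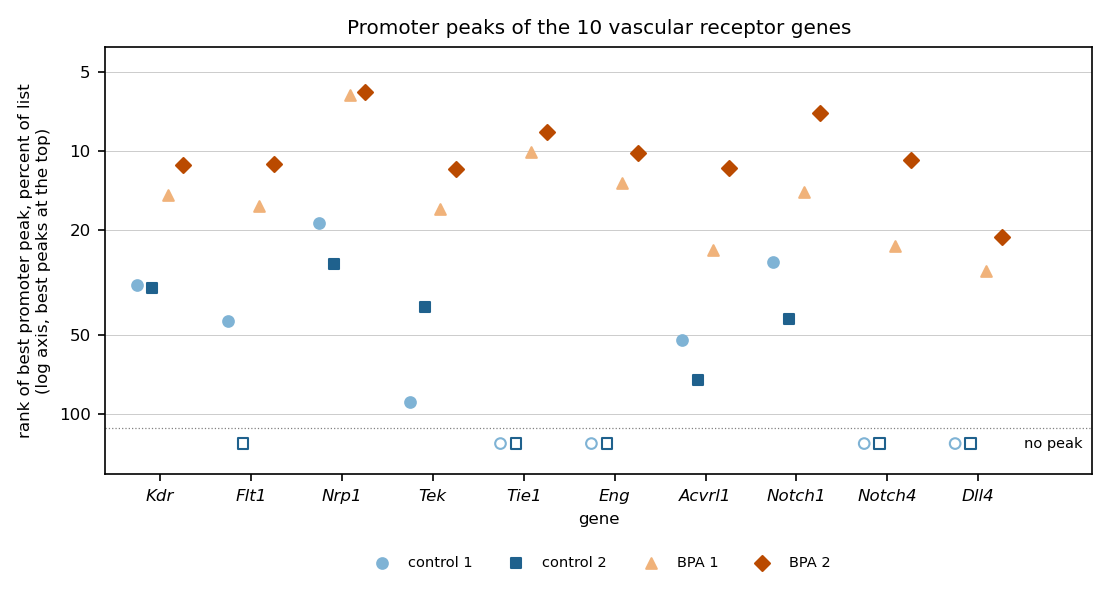
Rank of the best promoter peak of each gene in each library, in percent of that list on a log axis with the best peaks at the top. Filled symbols are peaks (blue circles and squares, controls; orange triangles and diamonds, BPA) and open symbols at the bottom mark libraries with no promoter peak; for each gene both BPA symbols lie above both control symbols.

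The VEGF receptor genes were open in most libraries and ranked higher in the BPA lists. The Kdr promoter (start site on chromosome 5 at 75978455) ranked at 32.4% and 33.0% in the controls and at 14.6% and 11.3% in the BPA libraries. Its fold was 4.10 and 4.63 in controls against 7.58 and 6.74 in BPA. The replicates of a group lay close together at this gene, and the groups did not overlap in rank or fold. The Flt1 promoter (chromosome 5 at 147726011) ranked at 44.3% in control 1 and at 16.1% and 11.1% in BPA 1 and BPA 2. In control 2 the nearest peak edge lay 944 bp upstream of the start site, just outside the promoter as defined, and that peak ranked at 34.2%. Flt1 was thus the member nearest to the 500 bp limit from outside, while the Tek peak of control 1, whose edge lay 344 bp from the start site, was the nearest from inside. The Nrp1 promoter (chromosome 8 at 128359073) had the best ranks of the set in every library, 18.8% and 26.8% in controls and 6.10% and 5.96% in BPA. It was a broad peak of 2665 to 3284 bp whose summit lay 607 to 1844 bp upstream of the start site, and it also covered the start of the microRNA gene Mir1903.

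The Tie receptors differed from each other. The Tek promoter (chromosome 4 at 94739289) had a peak in each library but a weak one in control 1, where it ranked at 90.3% with a pile-up of 12 reads. It ranked at 39.1% in control 2, 16.6% in BPA 1 and 11.7% in BPA 2, so that the controls were further apart than the BPA libraries. Its fold was 2.96 and 5.21 in controls and 9.20 and 9.04 in BPA. The Tie1 promoter (chromosome 4 at 118489849) had no control peak closer than 10276 bp in control 1 and 10253 bp in control 2, both upstream. In BPA it ranked at 10.0% and 8.44%, with a fold of 14.6 and 13.6, the highest folds among the members in both libraries. The summits lay 48 and 69 bp upstream of the start site, over the bases printed above.

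Of the BMP receptor pair, Acvrl1 was open everywhere and Eng in BPA only. The Acvrl1 promoter (chromosome 15 at 101128522) ranked at 52.3% and 74.3% in controls and 23.8% and 11.5% in BPA, with folds of 3.31 and 2.91 against 5.49 and 6.36. Both control peaks were narrow, 382 and 443 bp, against 749 and 1406 bp in BPA. The Eng promoter (chromosome 2 at 32646595) ranked at 13.2% in BPA 1 and 10.1% in BPA 2, with pile-ups of 63 and 191 reads. In the controls the nearest peaks lay 8552 and 17102 bp upstream. Ak1, which encodes an adenylate kinase, has a promoter at the upstream end of the Eng window. The region there had a peak in all 4 libraries, at 82.9% and 84.0% in controls and 34.6% and 38.2% in BPA. The best peak over all Ak1 start sites ranked at 42.2% and 84.0% in controls and 18.1% and 16.9% in BPA. The neighbour was thus listed in the controls where Eng was not, though its ranks too were better in both BPA libraries.

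Among the Notch genes the receptor of broad use was open throughout, and the more endothelial members were not. The Notch1 promoter (chromosome 2 at 26503822) ranked at 26.4% and 43.4% in controls and 14.3% and 7.11% in BPA. The Notch4 promoter (chromosome 17 at 34564295) had a peak only in BPA, at 22.9% and 10.8% of the lists and with pile-ups of 46 and 188 reads. In the controls the nearest peaks lay 7981 and 7415 bp upstream of Notch4. The Dll4 promoter (chromosome 2 at 119325784) was the weakest of the set in both BPA lists, at 28.7% and 21.2%. Control 1 held a peak 1952 bp downstream of the Dll4 start, ranked at 97.5%, and control 2 none closer than 11713 bp. The Notch1 and Dll4 promoters are shared with the noncoding genes Gm35978 and Gm14207, and the values cannot be assigned to one partner.

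**Figure D2:**
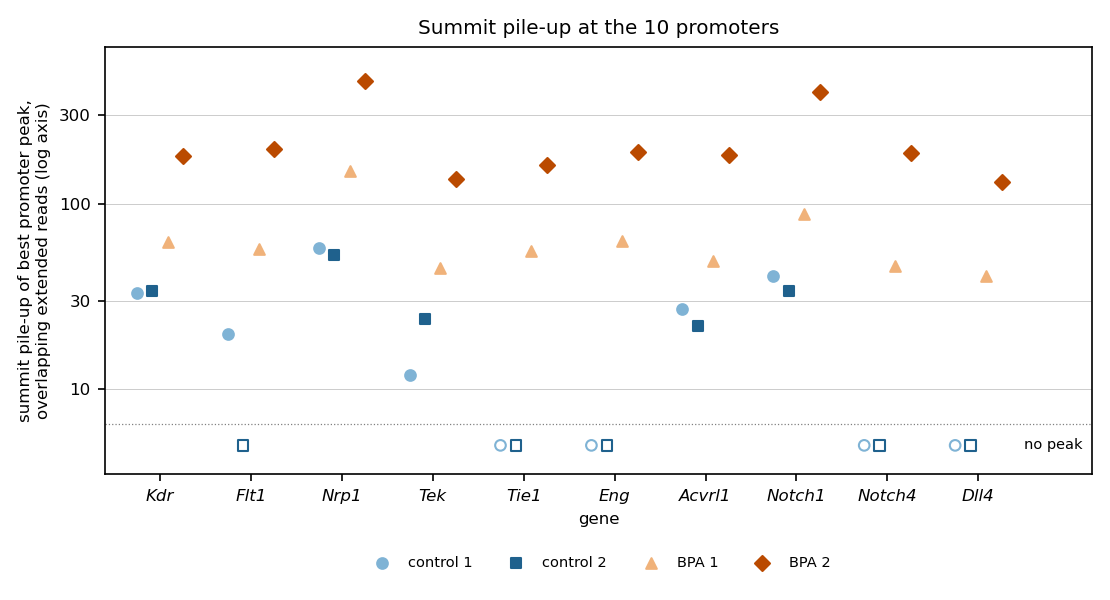
Summit pile-up of the best promoter peak of each gene, in overlapping extended reads on a log axis, by library (symbols and colours: blue, controls; orange, BPA; open symbols at the bottom, no peak). Pile-ups run from 12 to 58 in control 1, 22 to 53 in control 2, 41 to 150 in BPA 1 and 131 to 460 in BPA 2, and are not corrected for depth.

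The weakest peaks of a list show the fewest reads that could be listed, and only where local background was low. The weakest listed peaks had a pile-up of 9 reads in both controls, 6 in BPA 1 and 11 in BPA 2. A higher local background calls for more reads. In the Ak1 promoter region, control 1 had a pile-up of 23 over a background of 8.74, with a −log10 q-value of 2.86. An unlisted promoter can thus hold more reads than the weakest listed peak. BPA 1, the shallowest list, held all 10 promoters with pile-ups from 41 to 150 reads. In the controls, the members with a peak had pile-ups from 12 to 58 reads. A control promoter without a peak was not detected at this depth, which does not show that it was closed. Lists of equal depth were not compared, and the part of depth in the missing peaks was not tested.

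The BPA lists also gave higher values at promoters in general. At the 12166 coding promoters with a peak in all 4 libraries the mean fold in BPA was a median of 1.52 times that in controls, with quartiles of 1.34 and 1.74. For the 5 members open in all 4 the ratio was 1.37 at Notch1, 1.56 at Nrp1, 1.64 at Kdr, 1.91 at Acvrl1 and 2.23 at Tek. Notch1, Nrp1 and Kdr thus lay within the quartiles of all promoters, and Acvrl1 and Tek above them. The local background in the fold was itself higher in BPA. Its median over the 12166 promoters was 2.89 and 2.66 times the lowest of the list in controls and 5.70 and 6.90 times in BPA. Pile-up over that lowest background was 14.4 and 12.6 in controls against 76.1 and 106 in BPA at Notch1. At Tek it was 4.21 and 8.89 against 38.9 and 35.8. The order of the 5 members thus holds for fold only. Over the 12166 promoters the median pile-up was 58 and 57 in controls and 82 and 278 in BPA. The lowest backgrounds of those lists were 2.85, 2.70, 1.16 and 3.80. Pile-up over the lowest background was therefore higher in BPA at promoters in general, and not only at Notch1 and Tek. The fold was higher in both BPA libraries for 86.4% of those 12166 genes, so the higher folds of all 5 members set them little apart. Promoter peaks were also ordered only among themselves within each library. By that order, which uses the same ranks the genes were chosen by, all 10 members stood better in both BPA libraries, against 36.0% of coding genes. In that order Kdr stood at 81.7% and 79.9% in controls and 66.2% and 68.3% in BPA, and Nrp1 at 69.5% and 75.0% in controls and 34.2% and 43.2% in BPA. Even in BPA, then, most of these promoters stood in the lower part of the order of open promoters.

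The windows of the 10 genes held 129 merged regions out of 95118 in the windows of all coding genes, a region being the union of peaks that share 1 bp or more. Control 1, control 2, BPA 1 and BPA 2 had a peak in 53, 50, 82 and 107 of them. Regions with a peak in both BPA libraries and no control numbered 35, or 27.1%, against 9.72% over all coding windows. Regions with a peak in both controls and no BPA library numbered 3, or 2.33%, against 4.64%. Peaks in all 4 libraries were found at 29 regions (22.5%, against 30.1%), and 40 regions had a peak in a single library. The merged promoter region of Flt1 counts among the 29, since it takes in the control 2 peak that begins 944 bp upstream. The rank was better in both BPA libraries at 58 regions (45.0%, against 22.8%) and better in both controls at 14. No share over all coding windows was taken for the 14 or for the 40 single-library regions. Since the promoters were part of the choice, the regions away from promoters were also counted: 31 of 118 (26.3%) had BPA peaks only, against 10.8% of 80061 such regions over all coding windows. Without BPA 1 the BPA-only regions of the members numbered 58 of 125, against 24.2% of regions over all coding windows. Control-only regions numbered 9 of 121 without control 1, 10 of 123 without control 2 and 7 of 110 without BPA 2. The shares over all coding windows were then 16.5%, 15.6% and 10.5%. The regions are neighbours of the chosen promoters and are not an independent set. Most BPA-only regions lay inside the genes, with 25 of 35 in introns, 5 upstream, 1 in a coding exon and 4 at the promoters already described. Of all 129 regions, 76 lay in introns, 29 upstream, 5 in coding exons and 10 at the members' own promoters.

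**Figure D3:**
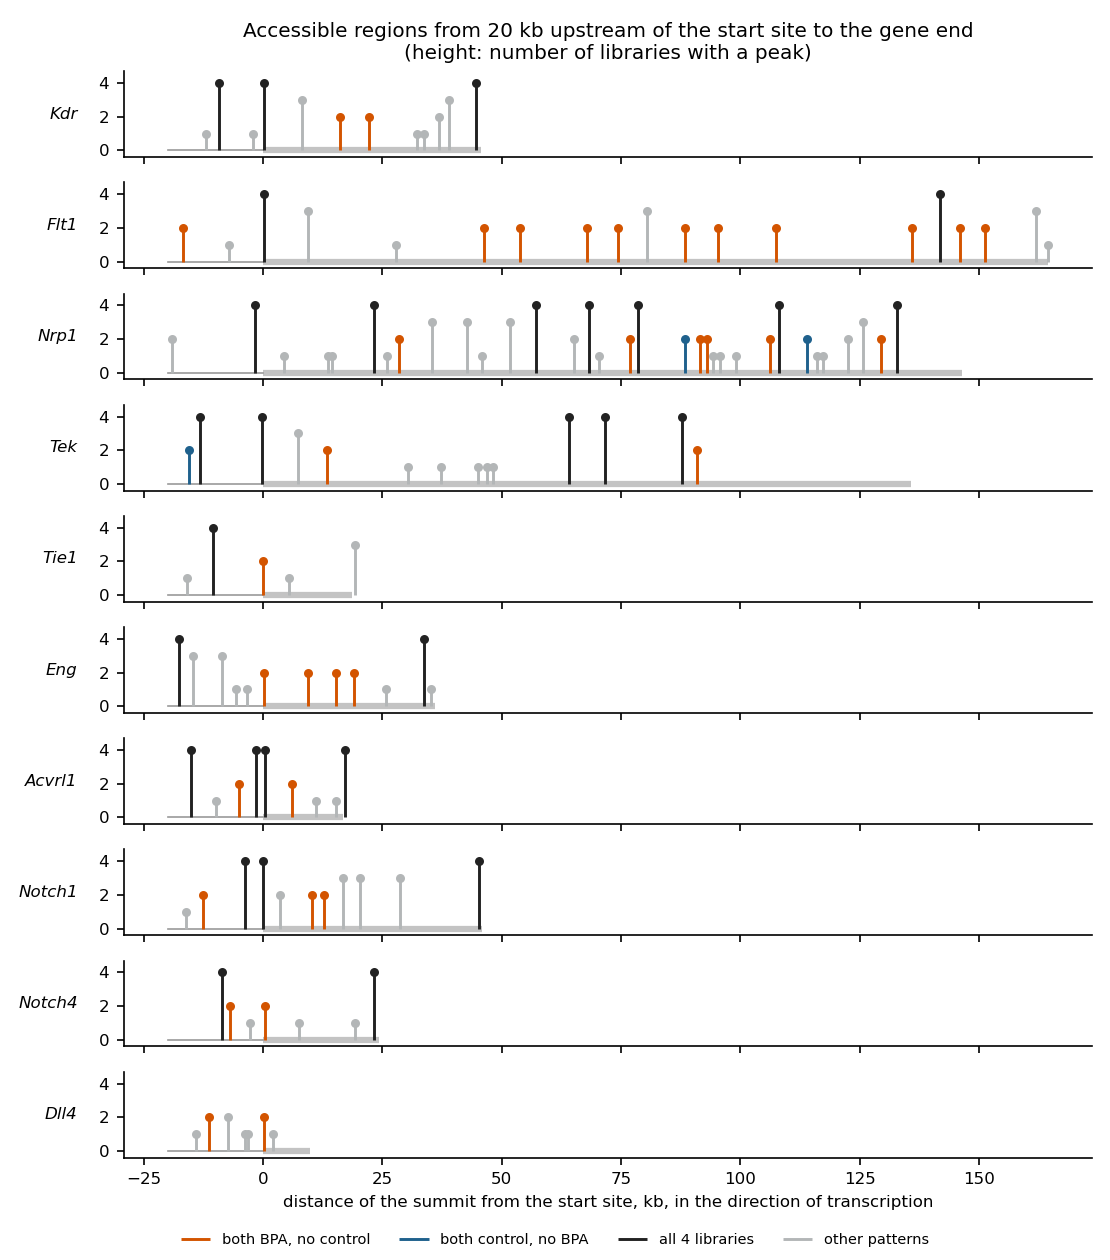
Regions of each gene by summit position relative to the start site, in kb in the direction of transcription; the thick grey bar is the gene and the thin line the 20 kb upstream. The height of each line is the number of libraries with a peak (0 to 4), orange for peaks in both BPA libraries only, blue for both controls only, black for all 4 and grey for other patterns; the orange lines are most numerous in Flt1, with 11 of its 19 regions.

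Flt1 carried the most BPA-only regions, 11 of 19, of which 10 were intronic. The strongest lay in intron 10 at 67.9 kb from the start site (chr5:147657466-147658635), where it ranked at 14.1% and 15.4% with folds of 11.5 and 8.88. Its rank was close to that of the Flt1 promoter in both BPA libraries. Others lay at 46.4 kb in intron 6, 53.9 kb in intron 10, 74.4 kb in intron 11, 88.4 kb in intron 13, 95.3 and 107.5 kb in intron 14, 135.9 kb in intron 18, 146.0 kb in intron 23 and 151.4 kb in intron 25. One more lay 16.7 kb upstream. These were weaker, with ranks from 29.1% to 82.3% and pile-ups down to 10 reads in BPA 1. The region in intron 13 has its summit inside an exon of the shorter curated transcript of Flt1, which ends there. One Flt1 region away from the promoter was open in all 4 libraries, in intron 20 at 141.9 kb, with ranks of 46.3% and 36.7% in controls and 71.7% and 41.2% in BPA, so that the groups overlapped. In intron 1, at 9.45 kb, control 1 ranked a peak at 23.1%, better than BPA 1 at 86.9% and BPA 2 at 63.1%. Without Flt1 the other members had BPA-only peaks at 24 of 110 regions, or 21.8%, against 9.72% over all coding windows. By gene the share ran from 14.3% at Tek, 16.7% at Kdr and 18.2% at Nrp1 to 57.9% at Flt1.

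Kdr had 2 BPA-only regions. The one in intron 10, at 16.2 kb (chr5:75961893-75963081), ranked at 21.4% and 19.5%, and the one in coding exon 15, at 22.2 kb, at 33.8% and 61.5%. The best shared Kdr region lay in the last exon, in its untranslated part, and ranked at 46.3% and 33.5% in controls and 6.69% and 8.67% in BPA. At 9.27 kb upstream the order was the other way, with ranks of 11.7% and 23.5% in controls and 53.2% and 80.5% in BPA. Kdr therefore held sites of both directions within its window.

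Nrp1 had the most regions, 33, and they were the most mixed. BPA-only regions lay in intron 2 at 28.4 kb, in intron 6 at 76.9, 91.6 and 93.0 kb, in intron 8 at 106.3 kb and in intron 12 at 129.5 kb. The best of them, at 91.6 kb, ranked at 33.2% and 30.3%. Control-only regions lay in intron 6 at 88.4 kb, ranked at 90.9% and 58.1%, and in intron 9 at 114.1 kb (chr8:128472570-128473616), ranked at 30.0% and 36.0%. In intron 6 the control-only region and the BPA-only region at 91.6 kb were thus neighbours. The best region open in all 4 libraries lay in intron 12 at 132.8 kb, at 23.8% and 9.92% in controls and 22.5% and 14.8% in BPA, with no separation of the groups. Ranks were better in both BPA libraries at 8 of the 33 Nrp1 regions, a share close to the 22.8% over all coding windows. They were better in both controls at 7.

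Tek was split in the same way along its length. BPA-only regions lay in intron 1 at 13.4 kb (chr4:94752328-94753318), ranked at 17.2% and 18.9%, and in intron 11 at 90.8 kb (chr4:94829714-94830569), ranked at 24.3% and 22.9%. A further region of intron 1, at 7.35 kb, had no peak in control 1, ranked at 63.6% in control 2 and at 12.8% and 13.6% in BPA. The reverse was seen in intron 4 at 64.1 kb (chr4:94802833-94804398), where a peak in all 4 libraries ranked at 17.6% and 10.8% in controls and 43.7% and 27.3% in BPA. A control-only region lay 15.6 kb upstream, ranked at 31.7% and 88.8%. Tie1 had 5 regions, and its promoter was the sole BPA-only one. Its best shared region lay 10.6 kb upstream and ranked at 59.0% and 31.4% in controls and 22.0% and 16.2% in BPA.

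Eng had 4 BPA-only regions of 12. Besides the promoter they lay in intron 1 at 9.47 kb (chr2:32654050-32656346), ranked at 13.7% and 14.8%, and in intron 2 at 15.3 kb, ranked at 28.7% and 33.2%, and at 19015 bp, ranked at 95.9% and 65.4%. The intron 1 site thus stood about as high in both BPA lists as the promoter. A region 8.63 kb upstream of Eng ranked at 98.8% in control 1, had no peak in control 2 and ranked at 24.1% and 22.7% in BPA. The shared region in intron 12, at 33.7 kb, ranked at 49.0% and 36.3% in controls and slightly worse, at 58.1% and 59.7%, in BPA. Acvrl1 had BPA-only regions 5.15 kb upstream, ranked at 29.0% and 26.9%, and in intron 3 at 6004 bp, ranked at 43.0% and 22.1%. The intron 3 summit lay 393 bp from a further Acvrl1 start site of the GENCODE annotation. Its best shared region lay just past the gene end, at 17.2 kb, with ranks of 16.9% and 16.5% in controls and 6.26% and 7.19% in BPA.

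The Notch genes had 7 BPA-only regions between them. In Notch1 they lay 12.7 kb upstream, ranked at 42.0% and 19.7%, and in intron 2 at 10.3 kb, ranked at 35.9% and 16.6%, and at 12.8 kb, ranked at 73.9% and 58.1%. A Notch1 site in intron 15, at 28.6 kb, had no peak in control 1, ranked at 50.6% in control 2 and reached 8.85% and 12.0% in BPA. The best shared Notch1 region lay in the untranslated part of the last exon, at 45.2 kb, with ranks of 51.9% and 55.5% in controls and 15.9% and 17.8% in BPA. Besides its promoter, Notch4 had a weak BPA-only region 7.02 kb upstream, ranked at 86.5% and 92.2%. Its shared region in the last coding exon, at 23.2 kb, ranked at 18.1% and 39.8% in controls and 7.96% and 5.00% in BPA. Dll4 had a BPA-only region 11.4 kb upstream, ranked at 35.4% in both BPA lists, and no region open in all 4 libraries. Control 2 had no peak anywhere in the Dll4 window, which spans 29.9 kb.

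The BPA-only regions of the members were strong ones of their kind. Of the 35, 8 stood among the best 25% of peaks in each BPA list (22.9%), against 351 of 9248 BPA-only regions over all coding windows (3.80%). Within the best 50% there were 19 (54.3%) against 24.6%. Rank was among the values the genes were chosen by, so these shares are a description. The 8 were the promoters of Tie1, Eng and Notch4 and the 5 regions whose sequence is given above.

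Base composition and short motifs were not among the values the genes were chosen by. The motifs were, however, picked with earlier results of these data known. CpG also goes with peak presence, which was part of the choice. Observed over expected CpG of the promoters ran from the 13.4th percentile of coding genes at Notch4, 21.0 at Tie1, 31.1 at Tek and 36.4 at Eng to 66.2 at Notch1 and 79.1 at Flt1. All coding promoters were ordered by CpG into 5 groups of 4200. BPA peaks only were found at 1.98%, 3.81%, 3.36%, 2.12% and 1.31% of these groups from the lowest CpG to the highest, while peaks in all 4 libraries were found at 6.19% of the lowest and 93.2% of the highest. The promoters of Notch4, Tie1, Eng and Dll4 had CpG values below that of Nrp1, Kdr, Notch1 and Flt1, while Tek and Acvrl1, open in all 4, lay among them. The median G+C content was 50.5% in the BPA-only regions of the members and 48.6% in all 13830 BPA-only regions.

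Motifs were searched on both strands within 100 bases either side of each summit. The ETS cores AGGAAG and CCGGAA, which share the letters GGAA, were found in 15 of the 31 BPA-only member regions away from promoters (48.4%). The share was 47.1% over all 13151 BPA-only regions away from promoters, 23.3% over the 7710 control-only ones and 32.3% over all, so the members' share was that of BPA-only regions in general. TGGGAA, the core of the motif of the Notch effector RBPJ, was found in 12 of the 31 (38.7%), against 25.2% of all BPA-only regions and 21.2% of all regions away from promoters. The GATA core AGATAA was found in 3 of the 31 (9.68%), against 8.44% and 11.8%. SOX cores, ACAATG or ACAAAG, were found in 9 of the 31 (29.0%), against 29.6% of all BPA-only regions. The FOX motif GTAAACA was found in 3 of the 31 (9.68%), against 3.25% of all BPA-only regions, and the AP-1 motif TGANTCA in 3 (9.68%), against 13.8%.

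The other genes of these pathways were read from lists set by role, and most were open in both groups. Of the 52 genes together, 44 and 40 had a promoter peak in the controls and 46 and 49 in BPA. Peaks in all 4 libraries were found for 38, in BPA only for 3 and in controls only for 0. The shares of these patterns over all coding genes were 57.9%, 2.51% and 0.433%. Ranks were better in both BPA libraries for 24 of the 50 genes with a peak and in both controls for 4. Over all coding genes with a promoter peak these shares were 40.3% and 16.8%. The BPA-only genes were Pgf, which encodes placental growth factor, a ligand of Flt1, Ptprb, an endothelial phosphatase acting on the Tie receptors, and Dok2, an adaptor that binds activated Tek. Among the 5 VEGF ligands, Vegfa had a promoter peak in each library, at 12.3% and 24.8% in controls and 13.7% and 8.25% in BPA, and Vegfd ranked better in controls, at 23.0% and 10.9% against 56.5% and 41.0%. All 7 VEGF co-receptors and partners were open in all 4 libraries. Of 19 BMP and TGF-beta partners 17, 17, 17 and 16 had a promoter peak, and the ligand genes Gdf2 and Bmp10, expressed mainly in liver and heart, had none in any library. Of 15 Notch ligands, receptors and targets 12, 10, 11 and 15 had one, and none had it in both libraries of 1 group and neither of the other, though Notch3, Dll3 and Heyl had it in BPA 2 alone. The target gene Hes1 lacked a promoter peak in BPA 1 alone. Angpt2, a ligand that can antagonise Tek, lacked one in control 2 alone, and Angpt1, its activating counterpart, was open in all 4.

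Markers of the cell types that fat holds differed between the groups to varying degrees. Over all 21000 coding genes, 13143 and 12895 had a promoter peak in the controls and 13467 and 14164 in BPA. Of 15 other endothelial genes, 5 and 4 had one in the controls and 14 in each BPA library. BPA-only were 8 of them, Pecam1, Cdh5, Emcn, Vwf, Erg, Sox18, Egfl7 and Robo4, against 2.51% of coding genes. The defining adhesion genes Pecam1 and Cdh5 were thus without a promoter peak in both controls. Esam, Sox7 and Tal1 were open in all 4 libraries, as 57.9% of coding genes were, and Plvap in none. The ranks of Esam and Fli1 overlapped between the groups. Pericyte and smooth muscle promoters were open at 5, 4, 6 and 8 of 8 in control 1, control 2, BPA 1 and BPA 2, with Rgs5 and Des in BPA only. Lymphatic endothelial promoters were open at 2, 2, 2 and 3 of 5, progenitor and fibroblast promoters at 5, 5, 6 and 6 of 6, and leukocyte promoters at 2, 2, 3 and 3 of 6, with Lyve1, Pi16 and Cd68 in BPA only. Mesothelial promoters were open at 2, 2, 2 and 1 of 3 and epithelial ones at 1, 0, 2 and 2 of 3, with Cdh1 in BPA only. Germ cell promoters were open at 0, 0, 0 and 1 of 4. The adipocyte list stood at 10 of 10 throughout, where presence can show no difference. By rank, 4 of the 10 adipocyte promoters, Pparg, Cebpa, Pnpla2 and Lpl, stood better in both BPA libraries and 0 in both controls. Over all coding genes with a promoter peak these shares were 40.3% and 16.8%, so the adipocyte share in BPA was that of genes in general. The part of cell composition in the values of the 10 receptor genes was not tested.

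**Figure D4:**
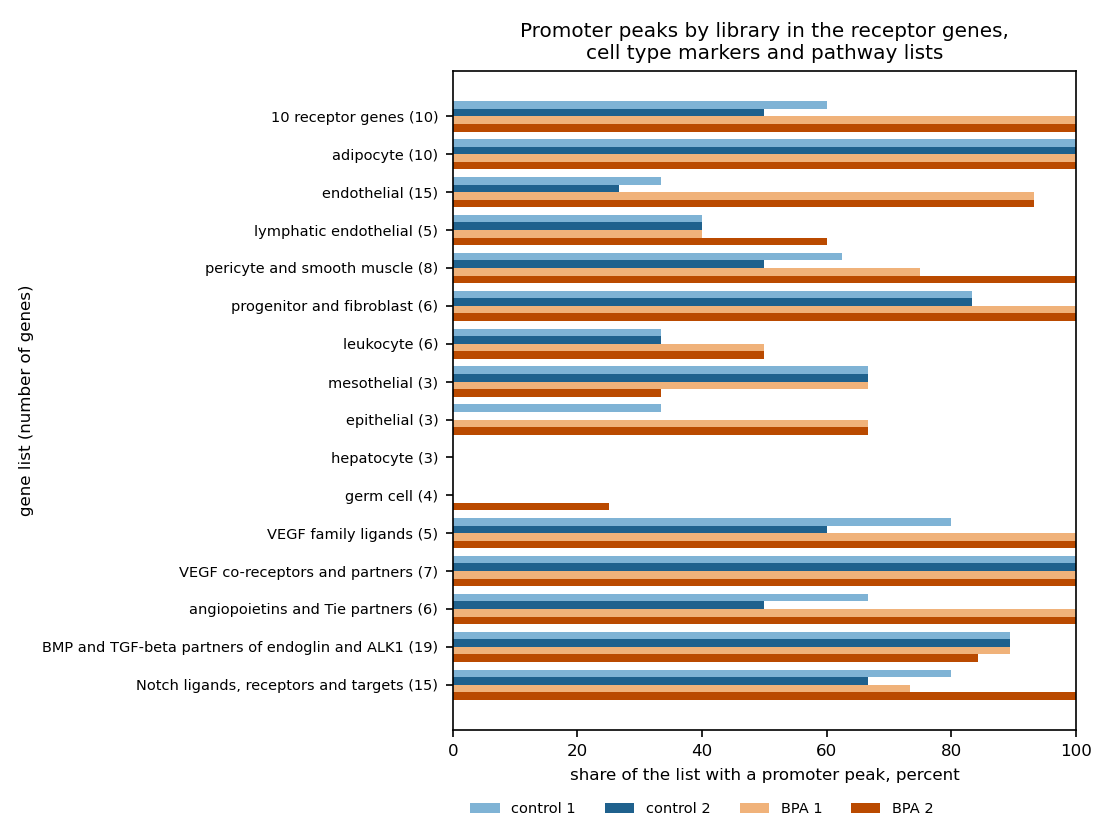
Share of each gene list with a promoter peak, in percent from 0 to 100, by library (blue, controls; orange, BPA), for the 10 receptor genes, 10 cell type marker lists and 5 pathway lists, with the number of genes in brackets. The receptor genes and the endothelial list have long orange and short blue bars, while the adipocyte list and the VEGF co-receptors reach 100 percent in all 4 libraries.

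The smallest two-sided p that exact permutation allows with 2 libraries against 2 is 0.33, so no difference between control and BPA was tested. The libraries came from 4 animals of an outbred stock, so the spread between libraries includes genotype.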

How the data were processed

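ATAC-seq was done on nuclei of visceral adipose tissue, with 4 libraries in 2 groups of 2 taken from the labels. Per the submitters' processing notes the tools were Trim Galore, Bowtie2 2.3.5.1, SAMtools and MACS2 2.2.7.1 on mm10. The authors called peaks on each library alone and deposited 1 list per library. The list assigned to BPA 2 carries another replicate number in its name than in its label, and was taken by its label. Each deposited peak has a score, a fold (ratio) of summit pile-up over local background, a −log10 p-value and a −log10 q-value, all of the authors' making. The lists hold no read totals. The lowest −log10 q-value of 1.30 to 1.31 corresponds to a q-value threshold of 0.05, and no interval was repeated.

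Here peaks were ranked by −log10 q-value within a list. Pile-up and background were solved from fold and p-value, and gave back the p-value to a relative error of 0.0001 at 100% of peaks. Promoters reached 500 bp to each side of 31601 start sites from 45756 curated transcripts (RefSeq, GRCm38). A gene's strongest promoter peak gave its value. Introns and exons were counted on the longest curated transcript. Peaks of all lists sharing 1 bp were merged into 147157 regions. Python 3.11.15, numpy 2.4.6, pandas 2.3.3, scipy 1.17.1 and samtools 1.23.1 were used, and the scripts were tested on simulated data. No test between groups was run.

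The members, lists and motifs were chosen with earlier results of these data known. All 10 members were named. All regions with peaks in both libraries of 1 group only were given, and for each member the shared region away from promoters with the best median rank; other regions were named after their values were seen. Of other lists, genes with a promoter peak in both libraries of 1 group only were named, and a few ligands and targets after their values were seen. The alternatives tried were a minimum −log10 q-value of 5, the best 20000 peaks, promoters of 1000 bp, summits, each library left out, shorter windows and peaks sharing 50% of both lengths.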

Additional observations from a re-analysis of the deposited data

How the results depend on the processing

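Of 59 alternative values of the 7 counts, 48 lay within 1.5 times the main count and 11 did not. No member had a promoter peak in both controls and no BPA library under any alternative run, and the members with better promoter ranks in both BPA libraries stayed at 8 to 10 of 10. Under the alternatives, 0.224% to 1.12% of coding genes had such a control-only promoter. Better ranks in both BPA libraries were found at 36.0% to 61.6% of coding genes with a promoter peak. With a minimum −log10 q-value of 5, members with a promoter peak in all libraries fell from 5 to 3, against 54.0% of coding genes. With the best 20000 peaks of each list that count was 0, members with promoter peaks in both BPA libraries only were 8, merged regions were 37 and BPA-only regions 19. Of coding genes, 40.2% and 4.83% had these promoter patterns, and 11.8% of regions over all coding windows were BPA-only. With summits in place of whole peaks, members open in all libraries were 2, against 50.9% of coding genes. Control-only regions were then 9 of 161, against 4.99% of regions over all coding windows. Under that setting control-only regions were thus not rarer at the members than over all coding windows, unlike in the main count. The smaller lists give fewer regions by construction, and the cause of the other moves was not tested.

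Leaving out 1 library at a time gave 40 to 58 BPA-only regions. The highest count was 58 of 125 without BPA 1, where 24.2% of regions over all coding windows had that pattern. Control-only regions numbered 4 to 10, with 9 of 121 without control 1, 10 of 123 without control 2 and 7 of 110 without BPA 2. In those runs 16.5%, 15.6% and 10.5% of regions over all coding windows had that pattern. Fewer lists make both patterns easier to meet. Order among coding promoters, chosen after seeing the data, left 10 of 10 members better in both BPA libraries. Peak lists alone limit what depth can show, since a site under the threshold of a list has no value there. No paired analysis was possible because no result here comes from a test.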
